A study of Homo sapiens with 12 samples.

Results

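ATF4, DDIT3, ATF3, ATF5, CEBPB, CEBPG, NUPR1, TRIB3, PPP1R15A and CHAC1 are 10 of the 60708 genes counted in HCT116, a line of human colorectal carcinoma cells, after mitochondrial or endoplasmic reticulum (ER) stress. They were chosen by name as ATF4, DDIT3 and the partners, feedback regulators and targets around them, and all 10 were found by their symbols. These genes and the gene lists below were chosen with earlier results of these data known, so counts of called genes among them are descriptions. OA, or oligomycin A, is an inhibitor of the mitochondrial ATP synthase, and TN, or tunicamycin, blocks the N-glycosylation of proteins in the ER. Cells received OA at 5 µg/mL or TN at 5 µg/mL for 24 h, as the sample labels state, although the paper's methods give a higher dose for OA. For either stressor, 3 biological replicates were set against 3 replicates given DMSO alone, and none of the 12 libraries carried both stressors.

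Among the 12 libraries, totals ran from 9884124 to 24983573 counts, and with either stressor every treated library was shallower than each of its own DMSO libraries. RN7SL1, the RNA of the signal recognition particle, held between 6.02% and 8.11% of the counts in the DMSO libraries and between 8.4% and 17.9% in the treated ones. OA replicate 2 stood apart with that highest share and with the highest score on the first principal component, 136 against 80.6 in the next library, TN replicate 1. Values without this library are given beside results of the 10 genes that it moved most. The epithelial markers EPCAM, CDH1, KRT8, KRT18, KRT19 and CLDN4 were counted in all libraries, whereas the colon marker CDX1 had 0 counts and VIL1 at most 3. The summed level of 10 markers of leukocytes, fibroblasts and endothelium was 1.96 to 2.96 CPM (counts scaled to library size) in the OA experiment with DMSO and between 6.12 and 12.5 CPM with OA, where COL1A1, a collagen gene, reached 11.5 CPM. With TN that sum was 2.81 to 4.83 CPM against 2.30 to 5.77 CPM with DMSO. The part of these markers in the results below was not tested. The libraries are bulk RNA, so that a change in the cells that make up a culture and a change in the RNA of each cell cannot be told apart.

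The integrated stress response works through eIF2α, a subunit of the factor that brings the initiator tRNA to the ribosome. Once one of its kinases has phosphorylated eIF2α, translation falls in general, while the mRNA of ATF4 is translated more because of short reading frames ahead of its coding sequence. ATF4 protein then binds, together with C/EBP proteins, to elements in the promoters of genes for amino acid supply, redox balance and further transcription factors. DDIT3, also called CHOP, is one of these factors and is known for its role in cell death under prolonged ER stress. The response also carries its own brakes, since PPP1R15A, also called GADD34, brings a phosphatase back to eIF2α, and TRIB3 binds and restrains ATF4 and DDIT3. The kinase PERK, encoded by EIF2AK3, answers to unfolded protein in the ER, whereas mitochondrial stress can reach eIF2α through the kinase HRI. Kinase activity was not measured in these libraries. RNA counts show the mRNA of these genes and not the translation of ATF4.

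The promoters of the genes were read first, in windows from 250 bases before to 50 bases after each RefSeq start site (GRCh38.p14). Windows were given for 9 of the 10 genes, all except NUPR1, and numbered 18 because a gene can have several start sites. The 8-letter C/EBP-ATF response element, TGATGNAA on either strand, was found at ATF3, CEBPG and CHAC1, which is 3 of 9 genes or 33.3%. Of all 27305 genes with a window, 4.46% held it. The cyclic AMP response element, TGACGTCA, was found at PPP1R15A alone, and 2.25% of all genes held it. The ER stress element, CCAAT then 9 bases then CCACG on either strand, was found at none of the 9 genes and at 0.0916% of all genes. The matched stretches are printed so that the letters can be read, with the element in capitals. For ATF3 and CEBPG they are the bases of the window that lie outside annotated exons, and for PPP1R15A and CHAC1 they are 30 bases around the element. All are on the + strand, and at CHAC1 the element reads on the other strand. At PPP1R15A and CHAC1 the element lies before the start site of the window but inside an annotated exon.
ATF3, chr1:212565157-212565333: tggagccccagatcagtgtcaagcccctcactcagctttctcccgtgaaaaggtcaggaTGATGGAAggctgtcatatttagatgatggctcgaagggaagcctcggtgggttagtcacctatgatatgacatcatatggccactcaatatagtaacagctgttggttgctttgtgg
CEBPG, chr19:33373896-33374112: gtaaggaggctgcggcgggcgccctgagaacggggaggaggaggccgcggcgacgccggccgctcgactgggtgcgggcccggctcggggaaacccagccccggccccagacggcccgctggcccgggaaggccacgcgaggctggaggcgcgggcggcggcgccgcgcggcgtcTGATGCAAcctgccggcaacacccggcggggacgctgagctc
PPP1R15A, chr19:48872352-48872381: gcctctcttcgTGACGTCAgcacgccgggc
CHAC1, chr15:40953251-40953280: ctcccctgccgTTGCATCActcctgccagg
The 12 windows of the other 5 genes, ATF4, DDIT3, ATF5, CEBPB and TRIB3, held none of these letters, and no window held more than one kind of element. A match describes the sequence and not a bound factor.

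Of the 10 genes, 5 were called higher with both stressors, and DDIT3 and CHAC1 rose the most with each. All 9 tested genes had a positive log2 fold change with OA and with TN. With OA, 7 genes passed an adjusted p of 0.05 (ATF4, DDIT3, ATF3, CEBPB, TRIB3, PPP1R15A and CHAC1), all of them higher, against 2.76% of all 14681 tested genes called higher. With TN, 5 passed (ATF4, DDIT3, CEBPB, TRIB3 and CHAC1), all of them higher, against 3.65% of 14432 tested genes. These 5 genes are the ones that passed with both stressors, and none of the 10 was called lower with either. NUPR1 was too low to be tested in either comparison, so that each count is of 9 tested genes. All 9 had every OA library above every DMSO library, where 14.7% of all tested genes did, and 7 of 9 did so with TN, where 15.7% of all tested genes did. The median log2 fold change of the 9 genes was 3.08 with OA and 1.46 with TN, beside −0.02 and −0.03 over all tested genes. Without OA replicate 2 the median with OA was 2.01. Adjusted p values here and below come from edgeR's quasi-likelihood test and were adjusted by Benjamini-Hochberg across the tested genes.

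**Figure D1:**
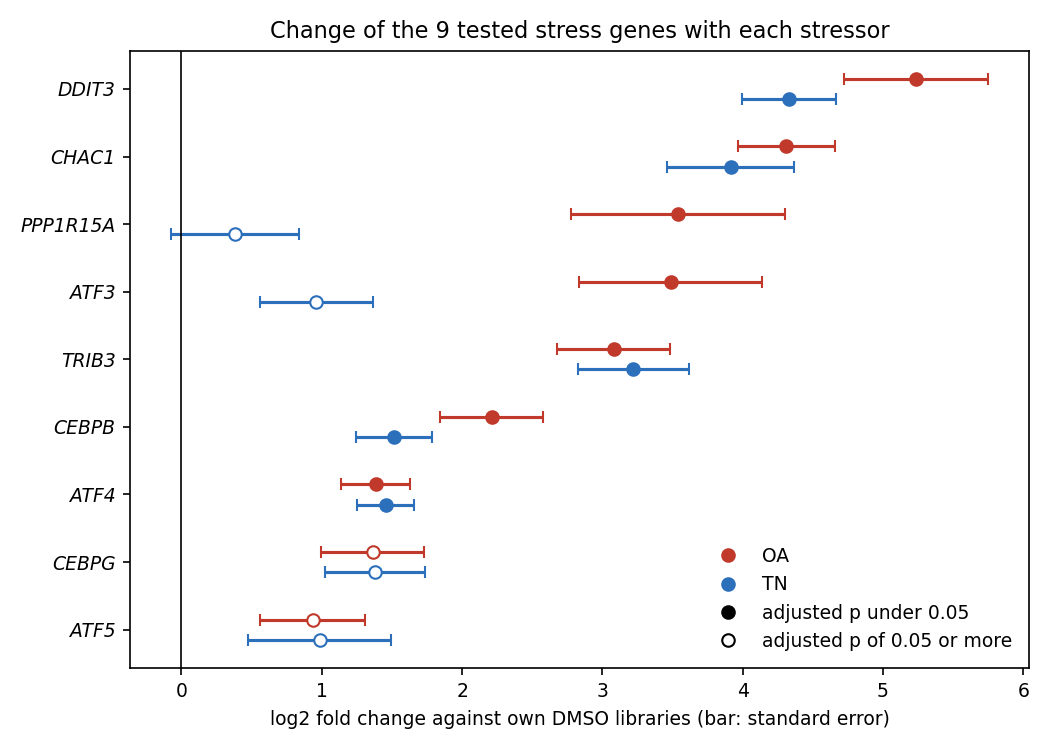
Log2 fold change of the 9 tested genes with OA (red) and TN (blue), each against its own 3 DMSO libraries, with bars for the standard error and filled points for an adjusted p under 0.05. DDIT3 and CHAC1 lie highest with both stressors, and PPP1R15A and ATF3 are the genes whose OA and TN points lie farthest apart.

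ATF4 encodes the bZIP transcription factor (a factor that binds DNA through a basic region and pairs through a leucine zipper) at the centre of the response, on chromosome 22 at 39519695 to 39522683, + strand. Positions of genes are given in hg38. Its level was 471, 662 and 486 CPM in DMSO replicates 1, 2 and 3 of OA and 1206, 1466 and 1308 CPM in the OA replicates. It was 507, 421 and 440 CPM in the DMSO replicates of TN and 1384, 1145 and 1188 CPM in the TN replicates. Every treated library was above every DMSO library by a wide margin, while the OA and TN levels overlapped, as did those of the DMSO groups. ATF4 rose by a log2 fold change of 1.38 with OA (standard error (SE) 0.246, 2.61-fold, adjusted p = 0.028) and by 1.46 with TN (SE 0.202, 2.74-fold, adjusted p = 0.00906). Both changes of ATF4 mRNA were among the smaller ones of the called genes, from the highest starting level. The files also list 4 processed copies of ATF4, ATF4P1 to ATF4P4, which held at most 37 counts in any library.

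DDIT3 encodes CHOP, a bZIP partner of C/EBP factors, and lies on chromosome 12 at 57516588 to 57521737, − strand. Its level was 8.56, 10.4 and 8.17 CPM in the DMSO replicates of OA and 235, 534 and 179 CPM in the OA replicates. In the TN experiment it was 10.8, 17.8 and 20.6 CPM with DMSO and 368, 310 and 313 CPM with TN. The OA libraries spread widely around those of TN, which lay close to each other. DDIT3 rose by 5.23 on the log2 scale with OA (SE 0.514, 37.6-fold, adjusted p = 0.01; 4.53 without OA replicate 2) and by 4.33 with TN (SE 0.336, 20.1-fold, adjusted p = 0.0024). The DMSO libraries of OA were all below those of TN. Exons of MARS1, MBD6 and an unnamed gene overlap 27.2%, 4.44% and 8.03% of the exon bases of DDIT3. The unnamed gene had 0 counts in all libraries, and the log2 fold changes of MARS1, a tRNA ligase gene on the other strand, were 1.05 (adjusted p = 0.0784) with OA and 0.69 (adjusted p = 0.105) with TN. Those of MBD6 were 0.86 (adjusted p = 0.324) and 0.85 (adjusted p = 0.234), so that DDIT3 moved more than either. MIR616, a microRNA gene inside DDIT3 that shares none of its exon bases and held 2 to 68 counts, rose by 3.58 with OA (adjusted p = 0.0416) and by 4.11 with TN (adjusted p = 0.0061).

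ATF3 encodes a bZIP factor that is induced early by many stresses and often acts as a repressor, on chromosome 1 at 212565334 to 212620777, + strand. Its level was 14.8, 14.4 and 15.4 CPM in the DMSO replicates of OA and 77.2, 314 and 65.9 CPM in the OA replicates. With TN it was 75.4, 61.0 and 66.1 CPM, beside 16.3, 47.4 and 40.1 CPM in the DMSO replicates. OA replicates 1 and 3 were thus at the level of the TN libraries, OA replicate 2 was far above both, and DMSO replicates 2 and 3 of TN were well above the other DMSO libraries. ATF3 rose with OA by a log2 fold change of 3.49 (SE 0.651, 11.2-fold, adjusted p = 0.0313), which was 2.29 without OA replicate 2. With TN its log2 fold change was 0.96 (SE 0.403, adjusted p = 0.198), although every TN library was above every DMSO library.

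CEBPB and CEBPG encode C/EBP factors, bZIP proteins that pair with ATF4 and DDIT3. CEBPB lies on chromosome 20 at 50190830 to 50192668 and CEBPG on chromosome 19 at 33373685 to 33382686, both on the + strand. CEBPB stood at 17.6, 22.8 and 19.8 CPM in the DMSO replicates of OA and at 59.4, 127 and 72.3 CPM with OA. It stood at 17.9, 23.3 and 18.7 CPM in the DMSO replicates of TN and at 70.1, 47.9 and 51.2 CPM with TN. The DMSO groups were alike and every treated library was above them. CEBPB rose by 2.21 on the log2 scale with OA (SE 0.366, 4.63-fold, adjusted p = 0.025) and by 1.51 with TN (SE 0.271, 2.85-fold, adjusted p = 0.0206). CEBPB-AS1, an antisense gene over 12.6% of the exon bases of CEBPB, had at most 21 counts.

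CEBPG was at 69.9, 37.7 and 47.9 CPM in the DMSO replicates of OA and at 197, 103 and 88.2 CPM in the OA replicates. It was at 43.1, 73.7 and 82.0 CPM in the DMSO replicates of TN and at 102, 217 and 210 CPM in the TN replicates. Replicate 1 was the highest library both with DMSO and with OA, and replicate 1 was the lowest both with DMSO and with TN. Its log2 fold changes were alike, 1.36 with OA (SE 0.367, adjusted p = 0.0736) and 1.38 with TN (SE 0.356, adjusted p = 0.0614), and neither passed the test. Both calls depended on the setting, since CEBPG passed under 6 of the 10 other settings with either stressor. With the replicate number as a block, that of TN was 1.38 with an adjusted p of 0.000536. With OA its adjusted p was 0.0101 in DESeq2, 0.00659 without a filter, 0.005 with GC offsets and 0.0429 under ACTB scaling, and 0.169 under total counts.

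ATF5, a bZIP factor linked to the mitochondrial unfolded protein response, lies on chromosome 19 at 49928702 to 49933935, + strand, and was the lowest of the tested genes. It was at 2.35, 4.73 and 2.79 CPM in the DMSO replicates of OA, at 5.05, 5.76 and 7.05 CPM with OA, at 4.05, 2.35 and 1.49 CPM in the DMSO replicates of TN and at 7.96, 3.28 and 4.0 CPM with TN. The groups overlapped with TN and barely separated with OA. The log2 fold changes of ATF5 were 0.93 with OA (SE 0.375, adjusted p = 0.184) and 0.98 with TN (SE 0.509, adjusted p = 0.287). NUP62, a nuclear pore gene on the other strand that shares 19.5% of the exon bases of ATF5, was lower, with log2 fold changes of −0.90 (adjusted p = 0.094) and −1.28 (adjusted p = 0.0249).

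**Figure D2:**
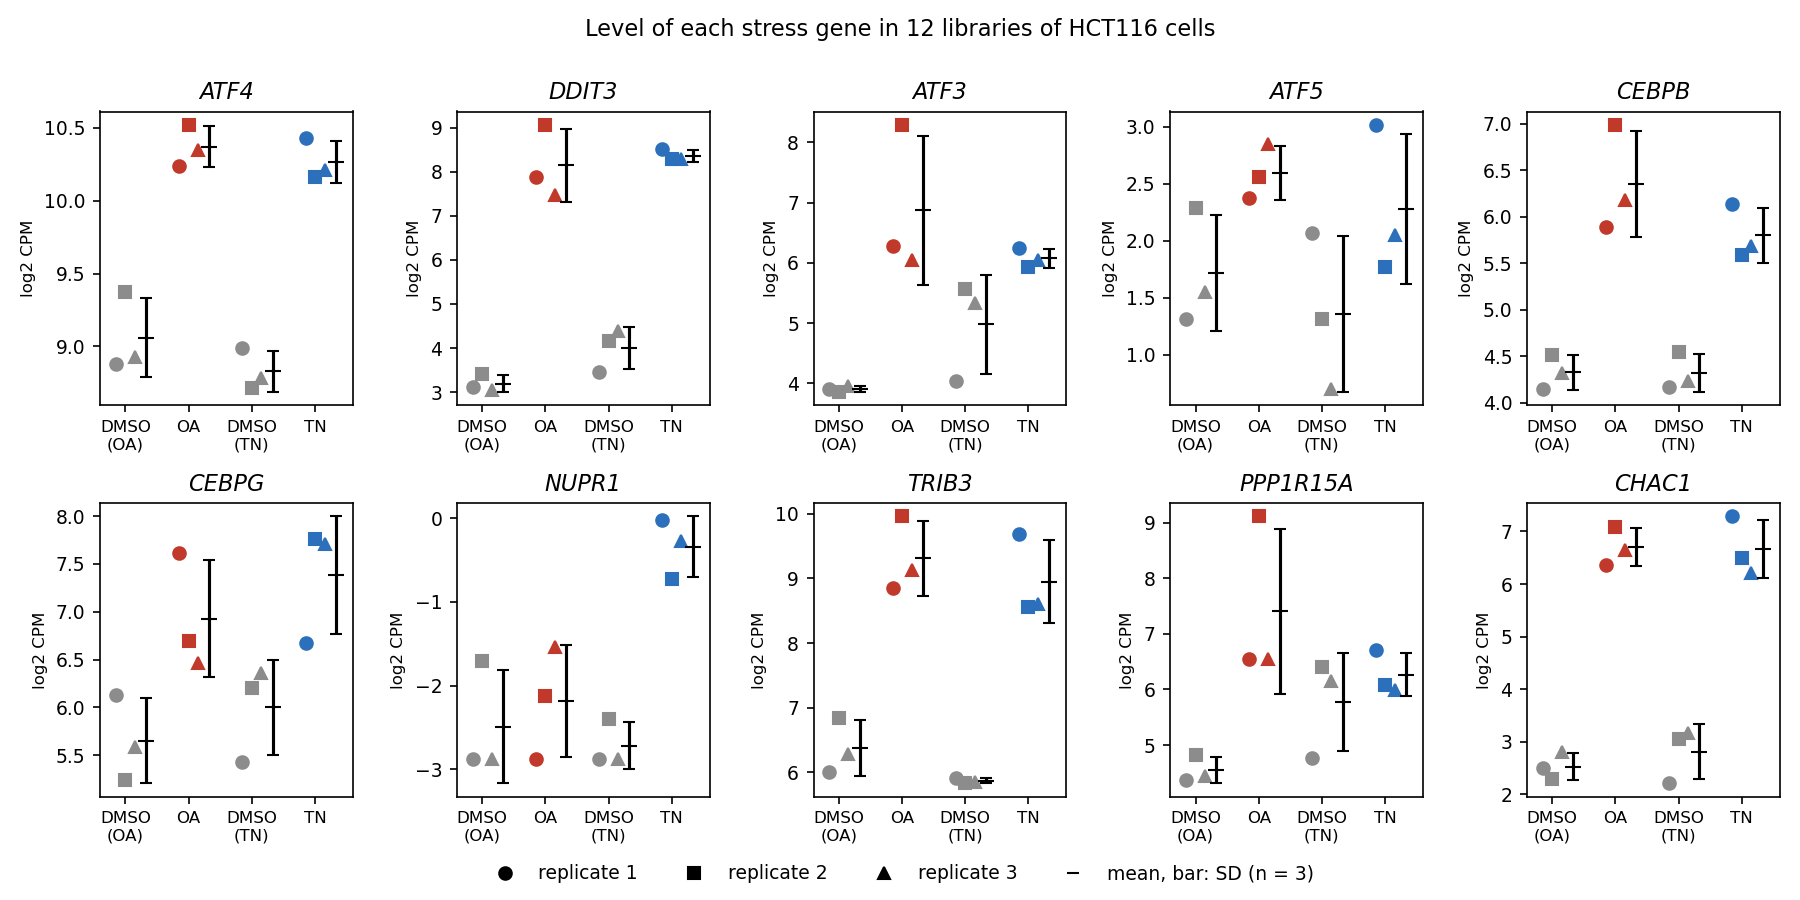
Log2 CPM of each of the 10 genes in the 12 libraries, grey for the DMSO libraries of OA and of TN, red for OA and blue for TN, with one panel and scale per gene, symbols for the replicate number and bars for the mean and SD of 3 libraries. DDIT3 and CHAC1 show a wide gap between treated and DMSO libraries with both stressors, and OA replicate 2 is the highest of the 12 libraries for ATF4, DDIT3, ATF3, CEBPB, TRIB3 and PPP1R15A.

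TRIB3 encodes a pseudokinase that binds ATF4 and DDIT3 and dampens them, on chromosome 20 at 362835 to 397559, + strand. Its level was 64.1, 115 and 77.9 CPM in the DMSO replicates of OA and 462, 995 and 557 CPM with OA. In the other experiment it was 60.2, 57.1 and 57.9 CPM with DMSO and 825, 375 and 391 CPM with TN. OA replicate 2 and TN replicate 1 were the highest libraries, and the DMSO libraries of TN hardly varied. TRIB3 rose by a log2 fold change of 3.08 with OA (SE 0.405, 8.46-fold, adjusted p = 0.0157) and of 3.22 with TN (SE 0.396, 9.31-fold, adjusted p = 0.00662).

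CHAC1 encodes an enzyme that degrades glutathione and is known as a target of ATF4 and DDIT3, on chromosome 15 at 40952962 to 40956512, + strand. It was at 5.51, 4.78 and 6.82 CPM in the DMSO replicates of OA and at 82.4, 136 and 101 CPM with OA. With TN it was at 156, 90.4 and 73.7 CPM, beside 4.49, 8.21 and 8.84 CPM in the DMSO replicates. Levels overlapped between the DMSO groups and between the stressors. CHAC1 rose by 4.31 on the log2 scale with OA (SE 0.346, 19.8-fold, adjusted p = 0.00437) and by 3.91 with TN (SE 0.455, 15.1-fold, adjusted p = 0.00604). It was the gene of the 10 with the lowest adjusted p with OA.

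PPP1R15A encodes GADD34, the stress-induced subunit that brings protein phosphatase 1 to eIF2α, on chromosome 19 at 48872212 to 48876059, + strand. Its level was 20.6, 28.1 and 21.7 CPM in the DMSO replicates of OA and 93.2, 554 and 93.6 CPM in the OA replicates. The TN libraries held 105, 67.9 and 63.8 CPM, and their DMSO replicates 27.1, 84.2 and 71.1 CPM. OA replicates 1 and 3 were nearly equal and OA replicate 2 was far above them, while TN and its DMSO libraries overlapped. PPP1R15A rose with OA by a log2 fold change of 3.54 (SE 0.761, 11.6-fold, adjusted p = 0.0428), which was 2.01 without OA replicate 2. Its log2 fold change with TN was 0.38 (SE 0.455, adjusted p = 0.668). Without DMSO replicate 1 of TN, the one low DMSO library, that value was 0.01.

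NUPR1 encodes a small chromatin-associated stress protein, on chromosome 16 at 28532708 to 28539008, − strand, and was barely counted. The counts were 0, 4 and 0 in the DMSO replicates of OA and 0, 1 and 2 with OA, and 0, 1 and 0 in the DMSO replicates of TN and 9, 5 and 8 with TN. All TN libraries were above the other 9 libraries, at 0.47 to 0.85 CPM. Summed over replicates, 22 counts with TN against 1 with DMSO gave a ratio of 33.9 relative to library size (95% exact interval 5.48 to 1.4e+03), which covers counting error only. With OA the ratio was 1.38 (0.202 to 8.14), from 3 counts against 4. Without a filter on low counts, the log2 fold change with TN was 4.55 with an adjusted p of 0.089, so that NUPR1 did not pass the test.

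The question whether the 10 genes changed differently with mitochondrial and ER stress was tested as the OA change minus the TN change over all 12 libraries. None of the 9 tested genes passed, with adjusted p = 1 for each, and 0% of all 15429 tested genes passed in edgeR. DESeq2 called 2 genes of the 15419 that it tested, neither of them among the 10, and 348 genes had an unadjusted p under 0.05 in edgeR. The differences farthest from 0 were those of PPP1R15A, 3.02 on the log2 scale (SE 0.899, 95% interval 1.06 to 4.98, unadjusted p = 0.00565), and of ATF3, 2.40 (SE 0.759, 0.74 to 4.05, unadjusted p = 0.00827). Both were smaller without OA replicate 2, at 1.62 and 1.3. Without a filter on low counts, both passed, with adjusted p of 1.08e-08 for PPP1R15A and 0.000114 for ATF3, among 25 of 31222 genes (0.0801%) called in that fit, whereas DESeq2 gave 0.827 for ATF3 and no adjusted p for PPP1R15A. The call for these genes therefore depended on the filter.

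For the other 7 genes the interval of the difference included 0. It ran from −0.73 to 0.44 for ATF4, the narrowest of the 9, so that a 2-fold difference between the stressors lay outside it on either side. It was −0.34 to 1.92 for DDIT3, around a difference of 0.79 that was 0.18 without OA replicate 2, −0.28 to 1.49 for CEBPB and −0.72 to 1.37 for CHAC1. The intervals of ATF5 (−1.44 to 1.26), CEBPG (−1.3 to 1.12) and TRIB3 (−1.32 to 0.90) reached more than 2-fold to either side or nearly so. The estimates of ATF4, ATF5, CEBPG and TRIB3 lay between −0.21 and −0.09, and their sign changed under scaling to ACTB. These intervals leave room for differences that 3 replicates per group could not resolve.

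**Figure D3:**
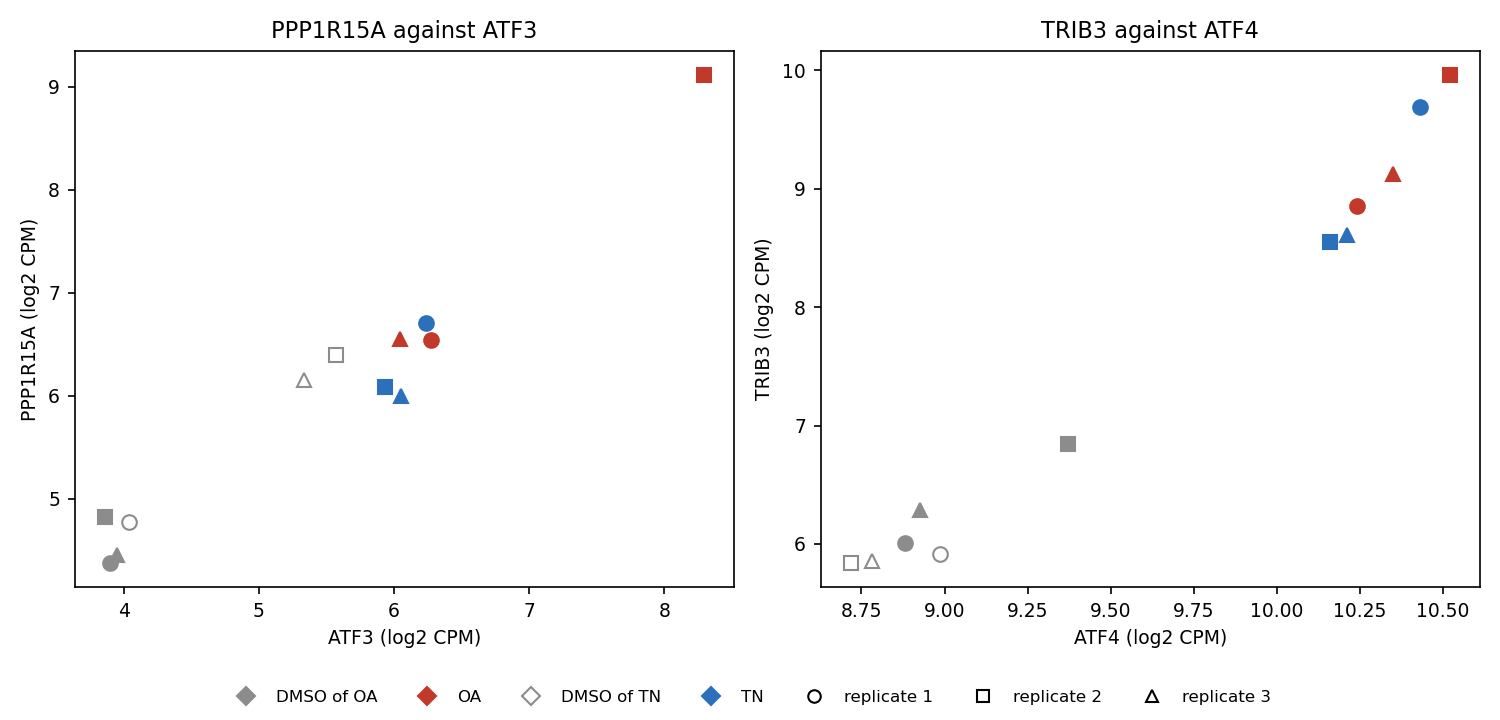
Log2 CPM of PPP1R15A against ATF3 (left) and of TRIB3 against ATF4 (right), 1 point per library, with filled grey points for the DMSO libraries of OA, open grey for those of TN, red for OA and blue for TN. PPP1R15A and ATF3 are high together in OA replicate 2 and in DMSO replicates 2 and 3 of TN, where PPP1R15A reaches the level of treated libraries and ATF3 stays below them, whereas TRIB3 and ATF4 are low in all DMSO libraries.

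ATF3 and PPP1R15A thus varied together over the libraries. Over the 12 libraries, the Pearson correlation of their log2 CPM was 0.973, that of ATF4 and TRIB3 was 0.989, that of DDIT3 and CHAC1 was 0.985 and that of CEBPB and TRIB3 was 0.975. The lowest value among all pairs of the 10 genes was 0.163, between ATF5 and CEBPG. The libraries in each of these pairs are the same ones, with the same treatment and depth, so these values are descriptions only.

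**Figure D4:**
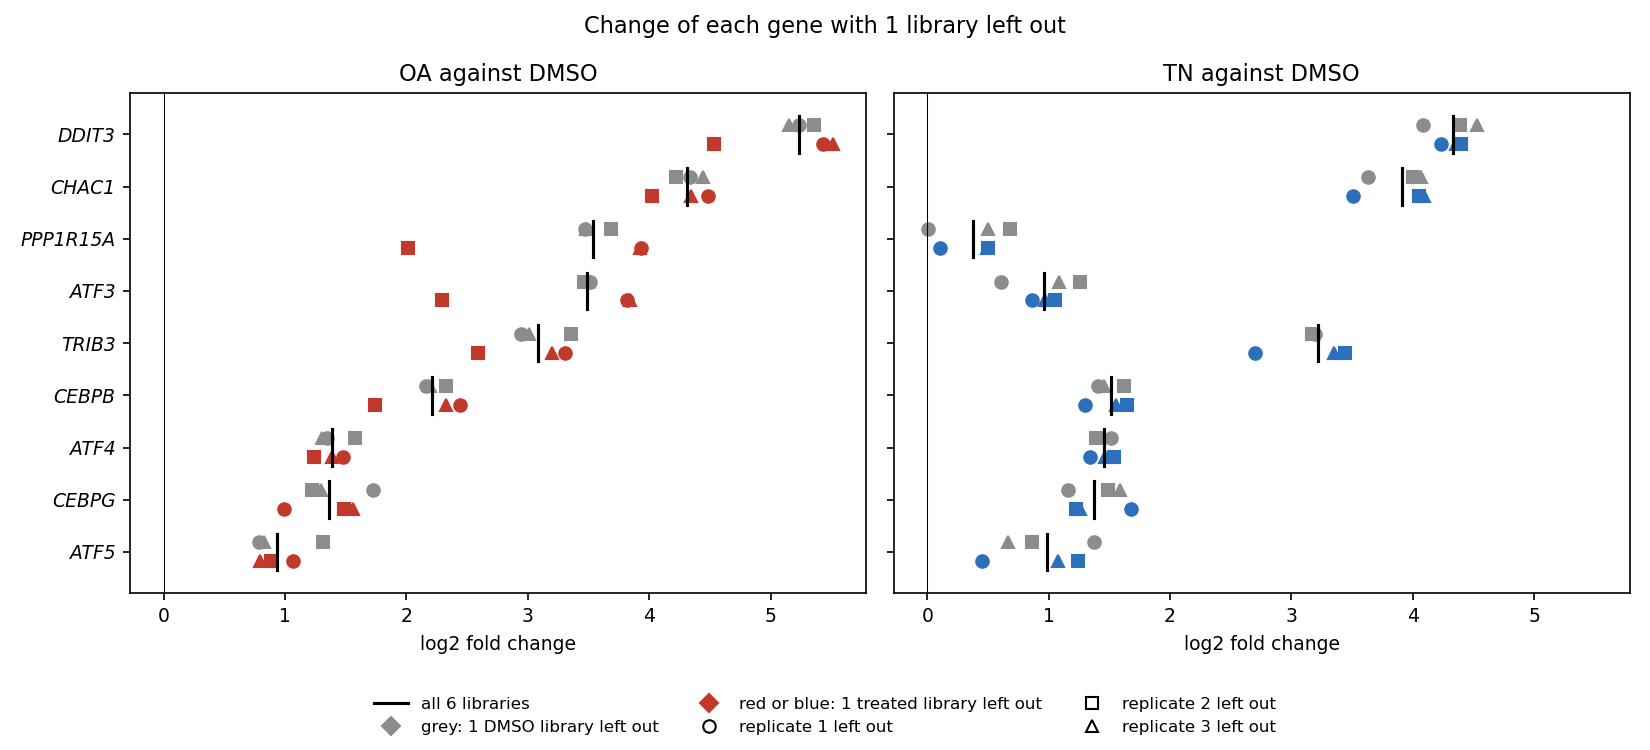
Log2 fold change of the 9 tested genes with OA (left) and TN (right) after 1 library was left out, grey for a DMSO library, red or blue for a treated library, with the symbol for its replicate number and a black line for all 6 libraries. Leaving out OA replicate 2 lowered PPP1R15A from 3.54 to 2.01 and ATF3 from 3.49 to 2.29, and all values stayed above 0.

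Leaving out 1 library at a time moved either the size of the changes or the calls. With OA replicate 2 left out, the log2 fold change was 4.53 for DDIT3, 4.03 for CHAC1, 2.59 for TRIB3, 1.74 for CEBPB and 1.24 for ATF4. The number of called genes among the 10 fell from 7 with all libraries of OA and its DMSO to 1 without DMSO replicate 1, to 0 without DMSO replicate 2 and to 0 without DMSO replicate 3, and to 3 without OA replicate 3, and it was 7 without OA replicate 1 and 7 without OA replicate 2. In the 4 fits with fewer, 5, 3, 3 and 91 of all tested genes were called. With TN, DDIT3, TRIB3 and CHAC1 passed in all 6 such fits, ATF4 passed in 4 and CEBPB in 1. Without DMSO replicate 2 or DMSO replicate 3 of TN, 3 of the 10 genes passed, where 1.23% and 1.01% of all tested genes did. The direction was the same in every one of these fits for all 9 genes, although PPP1R15A with TN was at 0.01 without DMSO replicate 1 of TN. Under the 10 settings that changed the tool, scaling, filter or model and kept every library, the 7 genes called with OA and the 5 called with TN passed in all 10. An adjusted p under 0.01 kept 1 gene with OA and 4 with TN.

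Levels can be compared between genes per length, as mean CPM per kilobase of the MANE transcript. On this scale, ATF4 was the highest of the 10 genes in all 4 groups, at 380 and 321 in the DMSO groups of OA and TN, 935 with OA and 873 with TN. DDIT3 was at 10.0 in the DMSO libraries of OA, close to CEBPB at 10.9 and PPP1R15A at 9.98, and below TRIB3 at 36.4 and CEBPG at 13.9. With OA, DDIT3 came second at 350, with a range over libraries of 198 to 592 that overlapped the range of TRIB3, 196 to 422. Then came PPP1R15A at 105, ATF3 at 78.5, CHAC1 at 69.9, CEBPB at 46.9, CEBPG at 34.7 and ATF5 at 2.97, and the ranges of PPP1R15A, ATF3 and CHAC1 overlapped. This order turned without OA replicate 2, where CHAC1 at 60.2 came before PPP1R15A at 39.7, CEBPG at 38.2, ATF3 at 36.9 and CEBPB at 35.8, while DDIT3 at 229 and TRIB3 at 216 kept their places. With TN, DDIT3 came second as well, at 366, and its lowest library at 343 was near the highest of TRIB3 at 350. CHAC1 followed at 70.2, from 4.72 in the DMSO libraries of TN, where it was above ATF5 and NUPR1 alone.

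The other bZIP genes were followed next, as a list of 46 without the 6 above. With OA, 13 of the 40 tested were called, all higher, beside 2.76% of all tested genes, at a median log2 fold change of 0.95. The 3 with the lowest p were NFIL3, a transcriptional repressor (1.89, SE 0.262, adjusted p = 0.0168), JUN, a subunit of AP-1 (2.63, SE 0.44, adjusted p = 0.026, and 2.02 without OA replicate 2), and CREB3L2, a membrane-bound factor cleaved on transport to the Golgi (1.47, SE 0.253, adjusted p = 0.027). With OA and the replicate block, 23 of this list were called, 22 higher and 1 lower, where the block called 26.7% of all tested genes. With TN, 6 of the 39 tested were called, all higher, with a median of 0.72, beside the 3.65% of all tested genes called higher. This count depended on the setting, with 13 in DESeq2 (15% of all tested genes), 12 under ACTB scaling (9.83%), 15 with GC offsets (22.3%) and 14 with the replicate block (27.1%), 13 of the latter higher. The 3 with the lowest p were NFE2L1, a factor for proteasome genes (1.54, SE 0.213, adjusted p = 0.00901), CREB3L2 (1.37, SE 0.2, adjusted p = 0.0106) and JDP2, a dimer partner of JUN and ATF3 (1.80, SE 0.288, adjusted p = 0.0136). Without any one of the DMSO libraries of OA, or without OA replicate 3, 0 bZIP genes of this list were called with OA. Those fits called 0.02% to 0.587% of all tested genes. With TN, 1, 0, 2 and 2 were called without DMSO replicate 2, DMSO replicate 3, TN replicate 2 and TN replicate 3. There, 1.23%, 1.01%, 2.01% and 2.07% of all tested genes were called. Without TN replicate 1, 12 were called with TN, where 15.8% of all tested genes were. DDIT3 had the largest rise among these genes and the 6 above with both stressors.

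**Figure D5:**
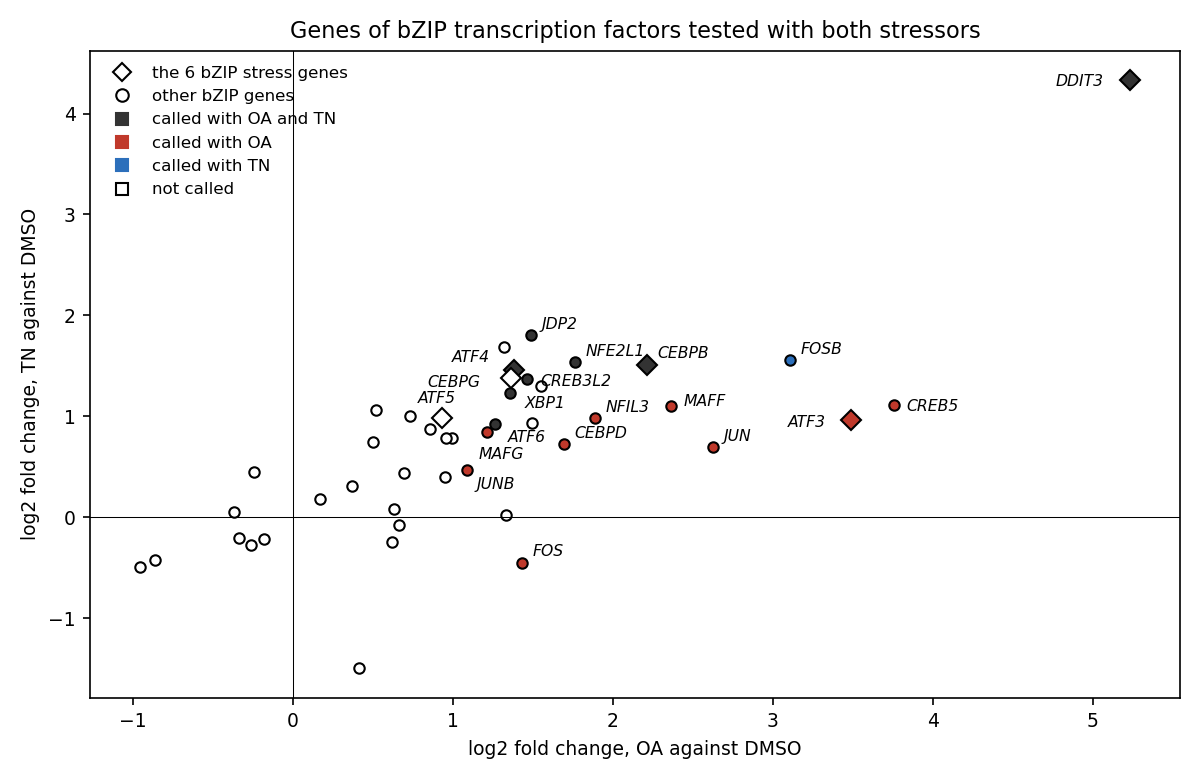
Log2 fold change with OA (horizontal) and TN (vertical) of bZIP genes tested in both comparisons, diamonds for ATF4, DDIT3, ATF3, ATF5, CEBPB and CEBPG and circles for the others, filled by the comparison in which the adjusted p was under 0.05. DDIT3 lies at 5.23 and 4.33, away from the other genes.

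Known targets of ATF4 outside the 10 genes were read from a list of 38. With OA, 22 of the 34 tested were called, all higher, beside 2.76% of all tested genes called higher. The median log2 fold change of the 34 was 1.64. The lowest p were those of DDIT4, an inhibitor of mTORC1 (4.58, adjusted p = 0.00219), GDF15, a stress-induced cytokine (3.52, adjusted p = 0.00219), and PCK2, a mitochondrial enzyme of phosphoenolpyruvate synthesis (2.65, adjusted p = 0.0116). With TN, 25 of the 35 tested were called, all higher, beside 3.65% of all tested genes called higher. The median of the 35 was 1.56. With the replicate block 31 were called, where the block called 27.1% of all tested genes. Without the block, the lowest p with TN were those of HERPUD1, a protein of ER-associated degradation (3.04, adjusted p = 0.0024), GDF15 (3.22, adjusted p = 0.0024) and DDIT4 (3.68, adjusted p = 0.0024). Without any one DMSO library of OA, 2 of these targets were called, where 0.02% to 0.0335% of all tested genes were. Without OA replicate 3, 7 were called, where 0.587% of all tested genes were. With TN, 11, 9, 13 and 16 were called without DMSO replicate 2, DMSO replicate 3, TN replicate 2 and TN replicate 3. In the same order, these fits called 1.23%, 1.01%, 2.01% and 2.07% of all tested genes. DDIT4 and GDF15 passed in all 6 fits of each stressor. Of the 30 genes of this list with a promoter window, 9 or 30% held the C/EBP-ATF response element. Of all 27305 genes with a window, 4.46% did.

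The genes around eIF2α were read from a list of 17, for the subunits of eIF2, its kinases, its exchange factor, the catalytic subunits of protein phosphatase 1 and the related factors EIF2A and EIF2D. With OA none passed edgeR's test, beside 4.48% of all tested genes called in either direction, and 4 had an unadjusted p under 0.05. DESeq2 called 3, where it called 13.1% of all tested genes. Other edgeR settings called up to 6, which was with the replicate block and its 26.7% of all tested genes. With TN 2 were called, beside 6.99% of all tested genes called in either direction. EIF2AK3, the gene of PERK, rose with TN by 1.24 (adjusted p = 0.0243) and had a log2 fold change of 0.97 with OA (adjusted p = 0.0535). EIF2B1, a subunit of the exchange factor, was lower with TN, at −1.08 (adjusted p = 0.0394), and had −0.86 with OA (adjusted p = 0.0714). EIF2S1, which encodes eIF2α itself, had −0.88 with OA (adjusted p = 0.0829), and PPP1CC, a catalytic subunit of protein phosphatase 1, had −0.80 with TN (adjusted p = 0.0904). With OA, EIF2AK3 passed under 7 of the 10 other settings and EIF2B1 under 6. The call of EIF2AK3 with TN was lost under total counts (adjusted p = 0.0617) and that of EIF2B1 under scaling to ACTB (adjusted p = 0.127). Without any one library other than TN replicate 1, none of the 17 was called with TN, where 1.01% to 3.16% of all tested genes were. Without TN replicate 1, 4 were called, where 15.8% of all tested genes were. With the replicate block, 6 of the 17 were called with TN, 1 of them higher and 5 lower, where the block called 27.1% of all tested genes.

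The close relatives of these genes were read as well. TRIB1, TRIB2, PPP1R15B and CHAC2 were tested, and NUPR2 was not counted in any library. None was called with either stressor in edgeR with all libraries and the settings used throughout. Of all tested genes, 4.48% were called there with OA and 6.99% with TN. An unadjusted p under 0.05 was found for 1 with OA (CHAC2) and 2 with TN (CHAC2 and TRIB2). PPP1R15B, which encodes the constitutive partner of protein phosphatase 1 at eIF2α, had log2 fold changes of 0.01 with OA (adjusted p = 0.985) and −0.21 with TN (adjusted p = 0.676), beside 3.54 and 0.38 for PPP1R15A. CHAC2, the other glutathione-degrading enzyme of this family, had −1.88 with OA (adjusted p = 0.106) and −1.61 with TN (adjusted p = 0.119), beside the rise of CHAC1. TRIB1 had 0.24 (adjusted p = 0.535) and −0.35 (adjusted p = 0.31), and TRIB2 had −0.50 (adjusted p = 0.351) and −0.80 (adjusted p = 0.0912). With OA, CHAC2 was called lower under 5 of the 9 other settings that tested it. Its log2 fold change with OA was −1.44 without OA replicate 2. Without OA replicate 1 it was −2.78 and was called, where 7.57% of all tested genes were. Total counts, no filter and DESeq2 called 1 of these 4 genes with TN, and the replicate block called 2, all lower, where these settings called 9.73%, 5.85%, 15% and 27.1% of all tested genes.

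The genes whose log2 CPM followed ATF4 and DDIT3 most closely over the 12 libraries were looked up among 8986 genes with a mean of at least 10 CPM. For ATF4 they were CARS1, which charges tRNA with cysteine (Pearson r = 0.996), HPCAL1, a neuronal calcium sensor protein (0.993), and SARS1, which charges tRNA with serine (0.992). For DDIT3 they were LURAP1L (0.99), CUTALP, a pseudogene (0.984), and DDIT4 (0.984). After each library was centred on the mean of its own DMSO libraries, 5 of these 6 genes were again among the 3 closest. The 12 points share their treatments and depths, and the values are descriptions.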

How the data were processed

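Reads were mapped by the authors to hg38 with STAR 2.7.9, which also counted reads by gene from Gencode annotation 32, and they deposited the raw counts for OA, TN and their DMSO libraries. Which strand column was kept is not given in the sources used here, so reads of genes that overlap on opposite strands may not be separated. The deposited tables also hold the authors' DESeq2 results (mean level, log2 fold change, standard error, test statistic, p-value and adjusted p-value), which were not used. Groups and replicate numbers came from the sample labels.

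Counts were normalized by TMM and tested, two-sided, by quasi-likelihood in edgeR 4.0.16 (R 4.3.3) after filterByExpr, for each stressor against its own DMSO libraries without covariates, and p was adjusted by Benjamini-Hochberg across the tested genes. The difference between the stressors was a contrast over all 12 libraries. CPM and log2 CPM (prior count 2) were scaled by TMM over the 12 libraries. Totals were 9884124 to 24983573 counts per library, and NUPR1, with at most 9 counts in a library, is limited by counting error. The scripts were tested on simulated data.

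The 10 genes, the lists and the rule for named genes were chosen with earlier results of these data known. Named were the 10 genes, the relatives, the 3 genes of lowest p per list and comparison, the 3 genes most correlated with ATF4 and with DDIT3, and ACTB. Genes that overlap the 10 were named by position. Gene positions are from Gencode 44 and promoter windows from RefSeq on GRCh38.p14. Alternatives were DESeq2 1.42.0, its size factors, total counts, ACTB scaling, a replicate block, GC offsets, no filter on low counts, a minimum of 10 counts in each library, 1 fit of all 12 libraries, an adjusted p under 0.01, other centring of the correlations and leaving out each library. The block with GC offsets was added after the data were seen. Deviations of same-numbered TN libraries from their group means correlated at 0.64, 0.40 and 0.42 across genes. TN replicate 2 and DMSO replicate 3 also correlated at 0.43, and TN replicate 3 and DMSO replicate 2 at 0.37. Whether these numbers mark pairs was not settled, and the main fits of both stressors used no block. With the block, 6 of the 10 genes were called with TN in place of 5, where it called 27.1% of all tested genes.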

Additional observations from a re-analysis of the deposited data

How the results depend on the processing

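No direction of a change with OA or TN turned among the 9 tested genes under any setting tried or library left out. That of PPP1R15A with TN was not a consistent rise, since it was 0.01 without DMSO replicate 1 of TN. Against the same-numbered DMSO library, its log2 difference was 1.94, −0.31 and −0.16 in TN replicates 1, 2 and 3. The counts of called genes did move. An adjusted p under 0.01 left 1 of the 7 genes called with OA. Among the bZIP genes with OA, 23 were called with the replicate block and 20 with the block and GC offsets, and with TN 13 by DESeq2, 12 under ACTB scaling, 14 with the block, 15 with GC offsets and 21 with both. Of the relatives, DESeq2, no filter, the block, GC offsets and both each called 1 with OA. With TN, DESeq2, total counts and no filter each called 1, the block 2, GC offsets 2 and both 3. Of the eIF2α genes with OA, DESeq2 called 3, total counts, ACTB scaling and at least 10 counts in every library 1 each, the block 6, GC offsets 2, 1 fit of all 12 libraries 2 and the block with GC offsets 3. With TN, total counts and ACTB scaling called 1 each, the block 6, GC offsets 4 and both 9. Without a filter, 2 of the 10 genes were called in the difference between the stressors, beside 0.0801% of all genes tested there. The share of all tested genes called also moved, from 4.48% with OA to 13.1% by DESeq2, 5.09% with total counts, 9.71% under ACTB scaling, 5.52% without a filter, 5.47% with at least 10 counts, 26.7% with the block, 16.4% with GC offsets, 10.9% in 1 fit and 25.8% with the block and GC offsets. With TN it moved from 6.99% to 15%, 9.73%, 9.83%, 5.85%, 8.78%, 27.1%, 22.3%, 8.73% and 37.5% in the same order.

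Without 1 library, the called genes among the 10 ranged from 0 to 7 with OA and from 3 to 6 with TN. The bZIP genes ranged from 0 to 15 and from 0 to 12, and the ATF4 targets from 2 to 26 and from 9 to 29. The eIF2α genes ranged from 0 to 1 and from 0 to 4, and the relatives from 0 to 1 with OA. These counts moved with the share of all tested genes called, which ranged from 0.02% to 7.57% with OA and from 1.01% to 15.8% with TN. The OA minus TN difference changed sign under ACTB scaling for ATF4 (0.089), ATF5 (0.12), CEBPG (0.049) and TRIB3 (0.12), and for CEBPG with GC offsets (0.18) and with the block and GC offsets (0.12). Without 1 library it ranged from −0.24 to 0.10 for ATF4, from −0.55 to 0.52 for ATF5, from −0.53 to 0.20 for CEBPG and from −0.61 to 0.42 for TRIB3. The cause was not tested.

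Total counts moved the median of all genes to −0.23 with OA and −0.18 with TN, and ACTB scaling to 0.42 and 0.30, as ACTB itself had log2 fold changes of −0.49 (edgeR adjusted p = 0.256) and −0.35 (adjusted p = 0.426). The replicate block called 3914 of all genes with OA in place of 658, and 3915 with TN in place of 1009. It also called CEBPG, with OA (adjusted p = 0.00181) and with TN, and changed no other call among the 10 genes. ACTB scaling called 9 of them with OA, beside 9.71% of all genes. The numbers of the OA libraries were not settled as pairs either, with correlations of 0.63, 0.54 and 0.091. Each OA library did correlate best with the DMSO library of its own number. With the block and GC offsets, ATF3 passed with TN (1.11, adjusted p = 0.0235). Depth limits NUPR1, and ATF5 had only 21 to 111 counts per library.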
